A study of Homo sapiens with 6 samples.

Results

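The genes described here carry copper, or are known to carry the drug cisplatin, into, through and out of the cell. They were chosen by name as 9 genes of the 60649 gene rows in the count table: the copper transporters SLC31A1 and SLC31A2, the copper ATPases ATP7A and ATP7B, the copper chaperones ATOX1, CCS and COX17, and the volume-regulated anion channel subunits LRRC8A and LRRC8D. All 9 passed edgeR's filter on low counts, which left 22038 genes for testing. RNA was sequenced from OVCAR5 cells, a human ovarian cancer line in long-term culture. One group of 3 libraries came from cells stably transduced with a METTL3 lentivirus, and the other 3 came from cells transduced with empty-vector lentivirus. Puromycin was used to select the stable lines, and the labels name no cisplatin, so the values are levels in untreated cells. METTL3 is the catalytic subunit of the complex that writes N6-methyladenosine (m6A) into mRNA. The labels also call the control libraries parental, and they do not say whether the lines were clones or whether the libraries of a group came from separate cultures, so p-values measure the spread between these libraries, which may be technical.

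Copper enters cells through SLC31A1 (CTR1), is passed on by small cytosolic chaperones, and is pumped into the secretory pathway or out of the cell by ATP7A and ATP7B. ATOX1 delivers copper to these ATPases, CCS delivers it to superoxide dismutase SOD1, and COX17 delivers it in mitochondria toward cytochrome c oxidase. Cisplatin can bind the same metal-binding sites and has been linked to uptake by SLC31A1 and to sequestration or export by the ATPases. Cisplatin also passes through volume-regulated anion channels, in which LRRC8A is the obligatory subunit and LRRC8D favours drug-permeable channels.

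Total counts ranged from 96633925 to 125463386 per library. METTL3 itself was at 152, 165 and 175 CPM (counts per 1000000, scaled with TMM factors) in replicates 1, 2 and 3 of the METTL3-overexpressing cells, against 80.6, 68.6 and 71.6 CPM in vector controls. All METTL3 libraries were above all vector libraries (two-sided exact permutation p = 0.1, the lower limit for 3 against 3), and the fitted log2 fold change was 1.16 (SE, the standard error of the fit, 0.117, edgeR adjusted p = 0.072). Epithelial markers were abundant, with EPCAM at 247 to 483 CPM and KRT8 at 3130 to 5150 CPM, and the immune marker PTPRC was at most 0.0708 CPM. Of the fibroblast markers, COL1A1 was at 8.04 to 18.1 CPM, DCN at most 0.0362 CPM and LUM at most 0.169 CPM. Of the endothelial markers, PECAM1 was at 4.67 to 21.4 CPM and VWF at most 0.284 CPM. Of the ovarian lineage markers, PAX8 was at 6.38 to 11.6 CPM and WT1 at 0.204 CPM or less. MUC16 ranged from 1.98 to 49.4 CPM. Replicate 1 of both groups stood apart from the other 4 libraries, so the log2 fold change of the 9 genes, and of the genes named from related lists, is given with all 6 libraries and with replicates 2 and 3 alone. That second comparison was chosen with earlier results of these data known.

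Across the 9 genes, levels per length of the MANE Select transcript differed widely. ATOX1 was the most abundant, at 137 CPM per kb on average (103 to 184 over the 6 libraries), followed by COX17 at 78.6 CPM per kb (69.3 to 104). CCS followed at 34.1 CPM per kb (31.1 to 37.5), so the 3 chaperones lay above all transporters and channel subunits on this scale. LRRC8A at 20.8 CPM per kb (14.1 to 23.9) and SLC31A1 at 15.1 CPM per kb (14.4 to 16.5) had overlapping ranges, as did ATOX1 and COX17. LRRC8D was at 8.91 CPM per kb (8.07 to 9.58). ATP7B at 1.43 CPM per kb (1.02 to 1.84) and ATP7A at 1.3 CPM per kb (1.04 to 1.95) could not be ordered. SLC31A2 was the lowest, at 0.23 CPM per kb (0.175 to 0.3). Its level is uncertain, since FKBP15 exons lie opposite 64% of its exonic bases and the strand setting of the counting is not given. Short transcripts such as those of ATOX1 (471 bp) and COX17 (426 bp) are sensitive to the length chosen, since the transcripts in these cells were not measured.

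**Figure D1:**
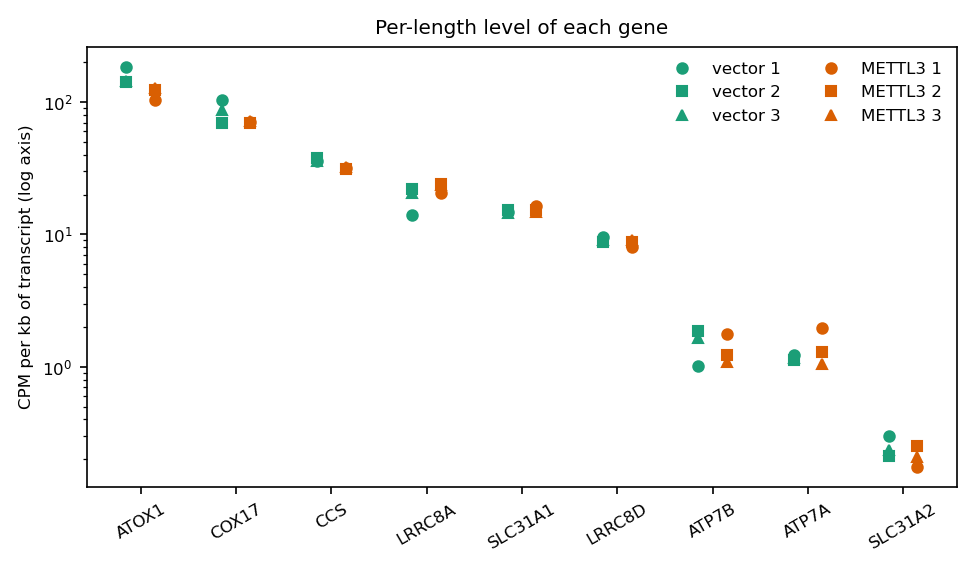
CPM per kb of MANE Select transcript (log axis) of the 9 copper and platinum transport genes, each point 1 library, with vector control in green and METTL3-overexpressing in orange. The chaperones ATOX1, COX17 and CCS lie highest, and SLC31A2 lies between 0.175 and 0.3 CPM per kb.

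With METTL3 overexpression, 0 of the 9 genes passed an adjusted p-value of 0.05 on all 6 libraries in edgeR's quasi-likelihood test, where percent called over all tested genes was 0. DESeq2 on the same 6 libraries also called 0 of the 9, and 1.47% of the genes to which it gave an adjusted p-value. The study also used DESeq2 but reported many more changed genes for METTL3 overexpression, so the fit given here does not reproduce its analysis. The reason for that difference was not tested. At an unadjusted p-value under 0.05, 1 of the 9 was lower (ATOX1), against 3.91% of all tested genes lower, 4.4% higher and 8.3% in either direction. The fitted log2 fold change was above 0 for 3 genes and below 0 for 6, with a median of -0.148, against 47.3% above 0 and a median of -0.018 over all tested genes. For 2 of the 9, ATOX1 and CCS, every METTL3 library was below every vector library, against 8.93% of all tested genes below, 8.47% above and 17.4% in either direction. In replicates 2 and 3 alone, edgeR called 3 of the 9, all lower (ATP7B, ATOX1 and CCS), against 15.2% of all tested genes, made up of 8.59% lower and 6.66% higher. With GC content and transcript length trends also removed per library, 5 of the 9 were called there, against 21.5% of all tested genes.

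**Figure D2:**
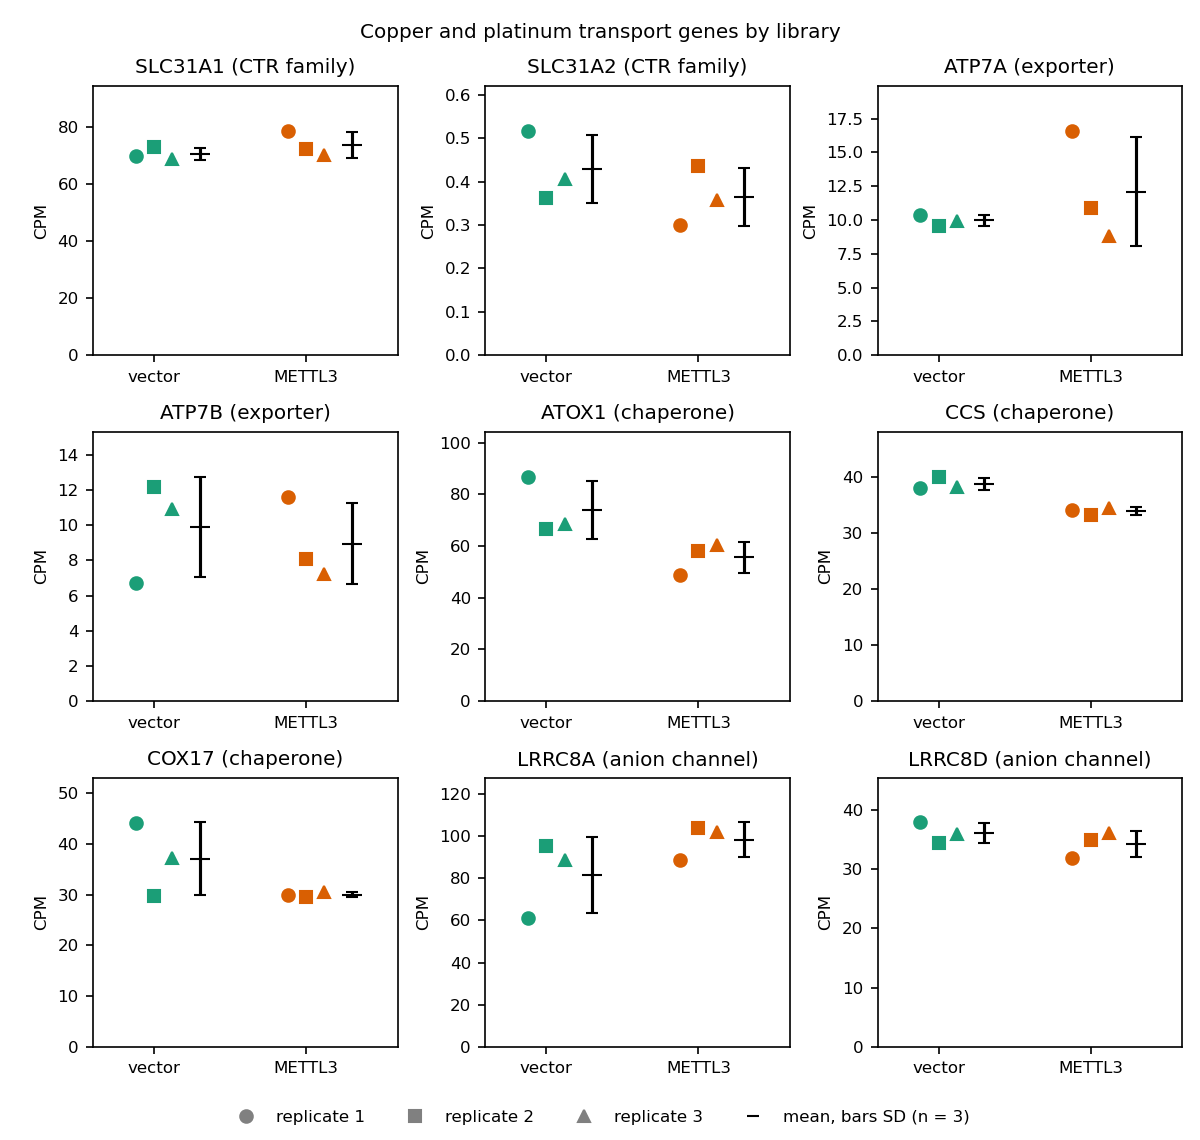
CPM of each of the 9 genes (vertical axis, from 0) in the vector control (green) and METTL3-overexpressing (orange) libraries, with a marker shape for each replicate number and the mean and SD of 3 libraries in black. ATOX1 and CCS are the 2 genes whose groups do not overlap, and vector control replicate 1 lies apart from the other vector libraries for LRRC8A, ATOX1 and ATP7B.

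SLC31A1 (ENSG00000136868.11, GRCh38 chromosome 9, 113221544 to 113264492, forward strand), the high-affinity copper importer, was at 78.6, 72.3 and 70.0 CPM with METTL3 and at 69.8, 72.9 and 68.7 CPM with the vector. The 6 values lay close together and the groups overlapped. Group means were 73.6 ± 4.47 and 70.5 ± 2.16 CPM (SD, n = 3 each). The fitted log2 fold change was 0.06 (95% interval -0.17 to 0.3, edgeR adjusted p = 0.868). Replicates 2 and 3 alone gave 0.01, with an interval of -0.11 to 0.13. These intervals bound the difference but do not show that the groups were alike. Of 14663 genes with at least 1 CPM, the pattern closest to SLC31A1 over the 6 libraries was that of BET1L (root mean square difference of centred log2 CPM 0.0159), followed by TMEM140 (0.0174) and SERAC1 (0.0188). The median over all these genes was 0.215. SLC31A1 itself varied by only 0.064 (root mean square of its centred log2 CPM), so other genes that varied little also lie close to it.

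SLC31A2 (ENSG00000136867.11, chromosome 9, 113150976 to 113164140, forward strand) encodes CTR2, a related protein of intracellular membranes. It had 34 to 54 counts per library, or 0.301, 0.436 and 0.357 CPM with METTL3 and 0.517, 0.363 and 0.407 CPM with the vector. The groups overlapped, and the log2 fold change was -0.23 (95% interval -0.91 to 0.45, edgeR adjusted p = 0.832), so a difference was not detectable at this depth. Replicates 2 and 3 gave 0.04 (interval -0.67 to 0.76). FKBP15 exons lie opposite 64% of its exonic bases, and FKBP15 was at 37.5 to 51.6 CPM. The strand setting of the counting is not given in the sources used here, so these reads cannot be told apart from those of FKBP15 with certainty.

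ATP7A (ENSG00000165240.21, chromosome X, 77910690 to 78050395, forward strand), the copper ATPase mutated in Menkes disease, was at 16.6, 10.9 and 8.84 CPM with METTL3. It was at 10.4, 9.57 and 9.95 CPM with the vector. METTL3-overexpressing replicate 1 was the highest library and replicate 3 the lowest, so the groups overlapped. The log2 fold change was 0.28 (95% interval -0.23 to 0.79, edgeR adjusted p = 0.721), and it was 0.02 in replicates 2 and 3 (interval -0.2 to 0.24, adjusted p = 0.936). Without METTL3-overexpressing replicate 1 the value was 0.01, and without replicate 3 of that group it was 0.48.

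ATP7B (ENSG00000123191.16, chromosome 13, 51930436 to 52012125, reverse strand), the copper ATPase mutated in Wilson disease, was at 11.6, 8.06 and 7.22 CPM with METTL3 and at 6.73, 12.2 and 10.9 CPM with the vector. Replicate 1 of each group lay on the opposite side from the other 2 replicates of that group. On all 6 libraries the log2 fold change was -0.15 (95% interval -0.74 to 0.45, edgeR adjusted p = 0.878). ATP7B was lower with METTL3 in replicates 2 and 3, with a log2 fold change of -0.59 (SE 0.0959, edgeR adjusted p = 0.000663), whereas within replicate 1 the METTL3 library was higher by 0.78 on the log2 scale. A lower level in a bulk library can come from fewer cells with the transcript or from less of it per cell, and these cannot be told apart. The per-length ratio of ATP7A to ATP7B was 1.11, 1.05 and 0.951 with METTL3 and 1.2, 0.611 and 0.711 with the vector, and the groups overlapped.

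ATOX1 (ENSG00000177556.12, chromosome 5, 151742316 to 151772532, reverse strand), the chaperone that loads both ATPases, was at 48.7, 57.9 and 60.3 CPM with METTL3 and at 86.8, 66.5 and 68.4 CPM with the vector. Each METTL3-overexpressing library was below each vector control library. The means were 55.6 ± 6.11 and 73.9 ± 11.2 CPM (SD, n = 3 each). The log2 fold change was -0.41 (SE 0.144, 95% interval -0.74 to -0.08), with an unadjusted p = 0.0206 and an edgeR adjusted p = 0.547, so the difference failed the correction. The replicate 1 libraries were the extremes of both groups. Within replicates 1, 2 and 3 the METTL3 library was at -0.83, -0.2 and -0.18 relative to the vector library on the log2 scale. ATOX1 was also lower in replicates 2 and 3 alone, with a log2 fold change of -0.19 (SE 0.0556, edgeR adjusted p = 0.0301). The per-length ratio of ATOX1 to the importer SLC31A1 was 6.26, 8.1 and 8.71 with METTL3 and 12.6, 9.23 and 10.1 with the vector. These ratios did not overlap between the groups. As SLC31A1 varied little, they largely restate the ATOX1 values. No share over other gene pairs was taken, and no test was run on them.

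CCS (ENSG00000173992.9, chromosome 11, 66593153 to 66606019, forward strand), the copper chaperone of SOD1, varied little between replicates. It was at 34.1, 33.1 and 34.5 CPM with METTL3 and at 38.0, 40.0 and 38.2 CPM with the vector. The groups did not overlap, and the gap was present in each replicate number (-0.16, -0.27 and -0.15 on the log2 scale). The log2 fold change was -0.19 (SE 0.102, 95% interval -0.42 to 0.04, edgeR adjusted p = 0.636) on 6 libraries. CCS was lower in replicates 2 and 3 alone, at -0.21 (SE 0.0603, edgeR adjusted p = 0.0285). COX17 (ENSG00000138495.7, chromosome 3, 119654513 to 119677454, reverse strand), the mitochondrial copper chaperone, was at 29.9, 29.5 and 30.5 CPM with METTL3 and at 44.1, 29.7 and 37.1 CPM with the vector. The groups overlapped at vector control replicate 2. Its log2 fold change was -0.3 (95% interval -0.65 to 0.04, edgeR adjusted p = 0.628), and -0.16 in replicates 2 and 3 (adjusted p = 0.3). It was also -0.16 without vector control replicate 1.

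LRRC8A (ENSG00000136802.12, chromosome 9, 128882133 to 128918039, forward strand), the obligatory channel subunit, was at 88.7, 104 and 102 CPM with METTL3 and at 61.1, 95.1 and 88.9 CPM with the vector. Vector control replicate 1 was the lowest library, and METTL3-overexpressing replicate 1 fell below vector control replicates 2 and 3. Within each replicate number the METTL3 library was the higher, by 0.54, 0.12 and 0.2 on the log2 scale. The log2 fold change was 0.27 (95% interval -0.13 to 0.66, edgeR adjusted p = 0.666), and 0.16 in replicates 2 and 3 (SE 0.0545, adjusted p = 0.0629). Without vector control replicate 1 the value was 0.09, and without vector control replicate 2 it was 0.41. The patterns closest to LRRC8A over the 6 libraries were those of CCNG2 (root mean square difference 0.022), GAS2L1 (0.0366) and SAP130 (0.0369), against a median of 0.327 over 14663 genes. Vector control replicate 1 was the lowest library for each of these genes too, so that library weighs in the match.

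LRRC8D (ENSG00000171492.14, chromosome 1, 89821014 to 89936611, forward strand) was at 31.9, 34.9 and 36.1 CPM with METTL3 and at 37.9, 34.5 and 36.0 CPM with the vector. The groups overlapped, and the log2 fold change was -0.08 (95% interval -0.33 to 0.18, edgeR adjusted p = 0.85). The value was 0.01 in replicates 2 and 3 (interval -0.12 to 0.14). The per-length ratio of LRRC8A to LRRC8D was 2.53, 2.71 and 2.58 with METTL3 and 1.47, 2.51 and 2.25 with the vector. Those groups did not overlap, but the lowest METTL3 ratio and the highest vector ratio were close. No share over other gene pairs was taken, and no test was run.

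**Figure D3:**
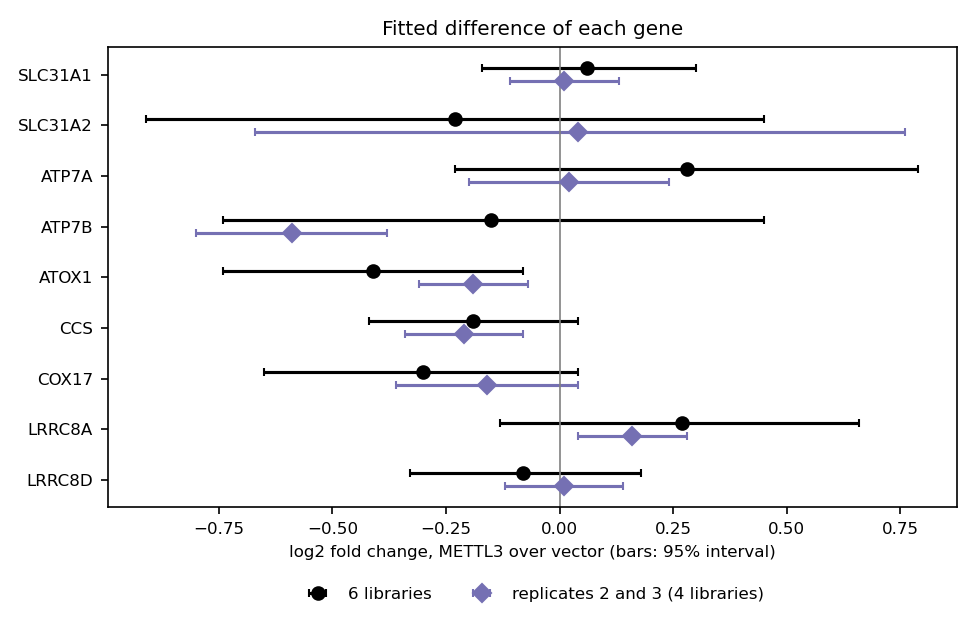
Fitted log2 fold change of METTL3-overexpressing over vector control cells for each gene with its 95% interval, on 6 libraries (black circles) and on replicates 2 and 3 of each group (purple diamonds). The intervals of ATP7B and CCS lie below 0 in replicates 2 and 3 and span 0 on 6 libraries. That of ATOX1 lies below 0 in both fits, and that of LRRC8A lies above 0 only in replicates 2 and 3.

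The differences within each replicate number show where replicate 1 departed from the others. For ATP7B the replicate 1 difference was 0.78 and those of replicates 2 and 3 were both -0.59. SLC31A2 and ATP7A changed sign among the 3 replicate numbers as well, at -0.78, 0.26 and -0.19, and at 0.67, 0.19 and -0.17. ATOX1, CCS and COX17 were lower with METTL3 in all 3, and LRRC8A was higher in all 3. Over all tested genes, 20% were lower in all 3 replicate numbers and 19.6% higher, or 39.6% in either direction, so 4 of the 9 is near the share over all genes. In replicate 1 the differences ran from -0.83 (ATOX1) to 0.78 (ATP7B). The median SD of the 3 differences of a gene was 0.275 for the 9 genes, against 0.305 over all tested genes. Part of the spread in the 6-library fits came with the 2 libraries of replicate 1, and its source was not tested.

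**Figure D4:**
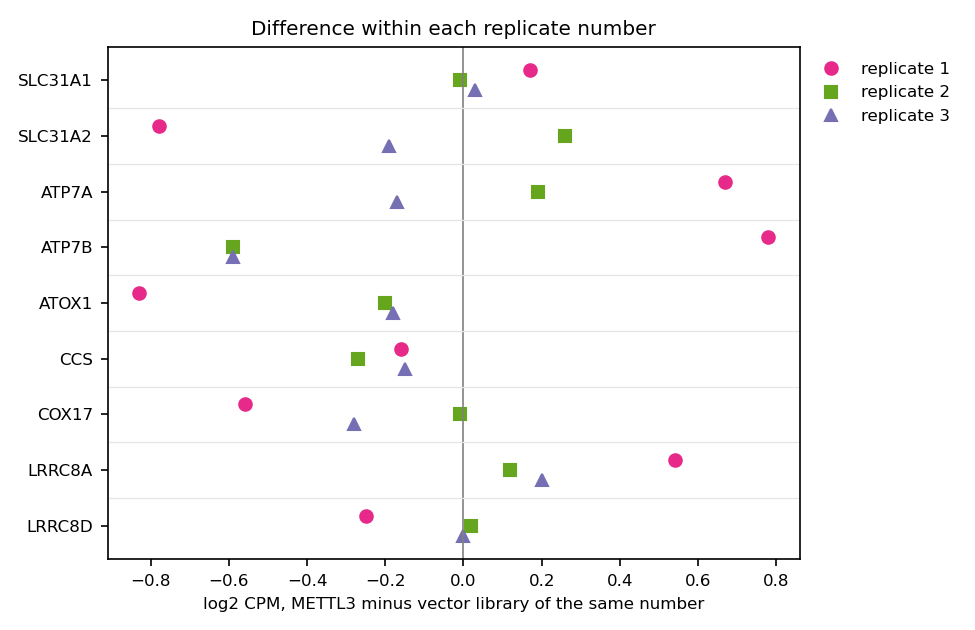
Log2 CPM of the METTL3-overexpressing library minus that of the vector control library with the same replicate number (horizontal axis) for each gene. Replicate 1 (circles) lies farthest from 0 for ATOX1 at -0.83, SLC31A2 at -0.78 and ATP7B at 0.78.

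METTL3 methylates adenosines within a short consensus, of which GGACT is a common form. Methylation was not measured in these libraries, and the match is only a description of the transcript letters. The motif was searched on the transcript strand alone, and GGACT was present in 88.5% of 19061 MANE Select transcripts of GENCODE release 44, with a median of 0.924 sites per kb. By number, ATP7B held 13 sites, SLC31A1 and ATP7A held 5 each, SLC31A2 held 4, CCS and LRRC8A held 3 each, LRRC8D held 2 and ATOX1 held 1. Per kb of transcript the order differed, with CCS at 2.81, SLC31A2 at 2.32, ATOX1 at 2.12 from its single site, ATP7B at 1.97 and SLC31A1 at 1.05, all above that median. LRRC8A at 0.692, ATP7A at 0.589 and LRRC8D at 0.506 sites per kb were below it. These letters did not occur in the COX17 transcript. For the 3 genes called in replicates 2 and 3, and for LRRC8A as the most abundant channel subunit, the site nearest to the stop codon is shown, with 12 bases on either side and GGACT in capitals. All 4 sites lie in the 3′ UTR and are written 5′ to 3′ on the transcript strand, from ATP7B at chr13:51934712-51934740 (reverse strand), ATOX1 at chr5:151742907-151742935 (reverse strand), CCS at chr11:66605914-66605942 (forward strand) and LRRC8A at chr9:128916858-128916886 (forward strand) of GRCh38.
ATP7B: gggccggggcagGGACTtgcctccactca
ATOX1: cagacagacctgGGACTtggcagtcatgc
CCS: agggggccagagGGACTttgcctgcccag
LRRC8A: taacacccacctGGACTtcagcagagtgg
Among the sites shown, that of ATP7B lies closest to the end of the coding sequence, with its A 30 bases beyond it. The distance was 73 bases for CCS, 85 for ATOX1 and 501 for LRRC8A. Of the genes not shown, SLC31A1, SLC31A2 and LRRC8D have their nearest site within the coding sequence, and ATP7A has it 841 bases beyond. Sites were shown partly because of the calls, and a relation between site position and calls was not tested.

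The rest of copper and platinum handling was described by 6 lists that hold 62 genes, of which 58 were tested. On 6 libraries 0 of the 58 passed an adjusted p-value of 0.05 in edgeR's test. At an unadjusted p-value under 0.05, 3 were higher and 6 lower, against 4.4% and 3.91% of all tested genes. Their log2 fold changes were above 0 for 19 and below 0 for 39, against 47.3% and 52.7% of all tested genes, and the median was -0.087 against -0.018. DESeq2 called 1 of them, CP, against 1.47% of all genes given an adjusted p-value. In replicates 2 and 3 edgeR called 5 higher and 11 lower, against 6.66% and 8.59% of all tested genes, and the median was -0.038. MT-CO1 and MT-CO2, the mitochondrially encoded copper subunits of cytochrome c oxidase, were listed at 0 in every library. These 0 values were not read as absence of the transcripts, and their source was not tested. HEPH and TYR did not pass the filter.

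Among 16 genes for uptake partners, regulators and traffic, 8 were above and 8 below 0, against 47.3% and 52.7% of all tested genes. In replicates 2 and 3 edgeR called 3 higher and 2 lower, against 6.66% and 8.59% of all tested genes. STEAP2, a metal reductase, was at 140, 110 and 108 CPM with METTL3 and at 75.2, 90.8 and 90.0 CPM with the vector. Its groups did not overlap, with a log2 fold change of 0.48 (SE 0.142, edgeR adjusted p = 0.454). COMMD1, which acts in the trafficking of the copper ATPases, was at 15.1, 16.4 and 16.7 CPM with METTL3 and at 26.2, 20.1 and 20.5 CPM with the vector. Those groups did not overlap either, with a log2 fold change of -0.47 (SE 0.143, edgeR adjusted p = 0.477). STEAP2 was higher in replicates 2 and 3 (0.27, adjusted p = 0.00252) and COMMD1 was lower there (-0.3, edgeR adjusted p = 0.00979).

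Of 11 tested genes for mitochondrial copper delivery, 10 were below 0, against 52.7% of all tested genes, and the median log2 fold change was -0.221, against -0.018. At an unadjusted p-value under 0.05, 1 was lower, against 3.91% of all tested genes. That gene was CMC2, a cytochrome c oxidase assembly factor, at 19.4, 21.2 and 24.1 CPM with METTL3 and 35.0, 22.8 and 27.6 CPM with the vector (log2 fold change -0.4, edgeR adjusted p = 0.599). Its value was -0.16 in replicates 2 and 3 (adjusted p = 0.307). COA6, another assembly factor, was at -0.29 on 6 libraries (edgeR adjusted p = 0.658) and at -0.04 in replicates 2 and 3 (adjusted p = 0.826). In replicates 2 and 3 the median of the list was -0.055 and 0 of its genes were called, so its shift moved with the replicate 1 libraries.

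Among the 13 tested copper enzymes, 6 were above and 7 below 0 on 6 libraries, against 47.3% and 52.7% of all tested genes. Their median log2 fold change was -0.038. In replicates 2 and 3 the median was -0.222, and edgeR called 2 of the 13 higher and 8 lower, against 6.66% and 8.59% of all tested genes. CP, which encodes the ferroxidase ceruloplasmin that is loaded with copper by ATP7B in liver, was at 134, 59.0 and 52.5 CPM with METTL3 and at 43.0, 33.8 and 31.2 CPM with the vector. The groups did not overlap, with a log2 fold change of 1.18 (SE 0.337, edgeR adjusted p = 0.451, DESeq2 adjusted p = 0.026). MOXD1, a relative of dopamine beta-hydroxylase, was at 12.5, 20.1 and 20.3 CPM with METTL3 and at 18.7, 38.8 and 37.8 CPM with the vector, and its groups overlapped (log2 fold change -0.85, edgeR adjusted p = 0.547). CP was higher in replicates 2 and 3, by 0.78 (edgeR adjusted p = 3.91e-06) and MOXD1 was lower there, at -0.92 (adjusted p = 3.73e-07). SOD1, the enzyme that CCS loads with copper, was named after its values were seen. It was at 94.7, 126 and 133 CPM with METTL3 and at 184, 140 and 162 CPM with the vector, with groups that did not overlap (log2 fold change -0.46, edgeR adjusted p = 0.558). SOD1 was lower in replicates 2 and 3, at -0.22 (edgeR adjusted p = 0.0456).

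Among the other LRRC8 subunits, LRRC8B was at 42.0, 39.5 and 35.4 CPM with METTL3 and at 35.2, 34.1 and 31.7 CPM with the vector. The lowest METTL3 value was just above the highest vector value (log2 fold change 0.21, edgeR adjusted p = 0.641), and replicates 2 and 3 gave 0.19 (adjusted p = 0.0897). LRRC8E was at 1.15 to 1.79 CPM with overlapping groups, with log2 fold changes of 0.3 on 6 libraries and 0.25 in replicates 2 and 3 (edgeR adjusted p = 0.69 and 0.508). LRRC8C was at -0.06 and -0.01 (edgeR adjusted p = 0.938 and 0.944). Of the 7 genes for other platinum transporters, 6 were below 0, against 52.7% of all tested genes. At an unadjusted p-value under 0.05, 2 were lower, against 3.91% of all tested genes. In replicates 2 and 3 edgeR called 1 lower, against 8.59% of all tested genes. The called gene was SLC22A3, an organic cation transporter. SLC22A3 was at 22.5, 38.0 and 37.6 CPM with METTL3 and at 37.6, 63.4 and 59.3 CPM with the vector. It was below its vector library in every replicate number, with differences of -0.74, -0.74 and -0.66 on the log2 scale. On 6 libraries its log2 fold change was -0.71 (SE 0.252, edgeR adjusted p = 0.554), and in replicates 2 and 3 it was lower, at -0.7 (adjusted p = 2.07e-06). TMEM205, a membrane protein linked to cisplatin export, was at -0.09 on 6 libraries (edgeR adjusted p = 0.871) and at -0.05 in replicates 2 and 3 (adjusted p = 0.761). For copper-dependent cell death, 7 of 8 genes were below 0 on 6 libraries, against 52.7% of all tested genes, with a median log2 fold change of -0.175 and 0 past an unadjusted p-value of 0.05. In replicates 2 and 3 the median was 0.005 and 0 were called. FDX1, a mitochondrial ferredoxin, was at -0.2 on 6 libraries and -0.1 in replicates 2 and 3 (edgeR adjusted p = 0.641 and 0.263). DLD, the dihydrolipoamide dehydrogenase, was at -0.23 and 0 (edgeR adjusted p = 0.683 and 0.99).

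**Figure D5:**
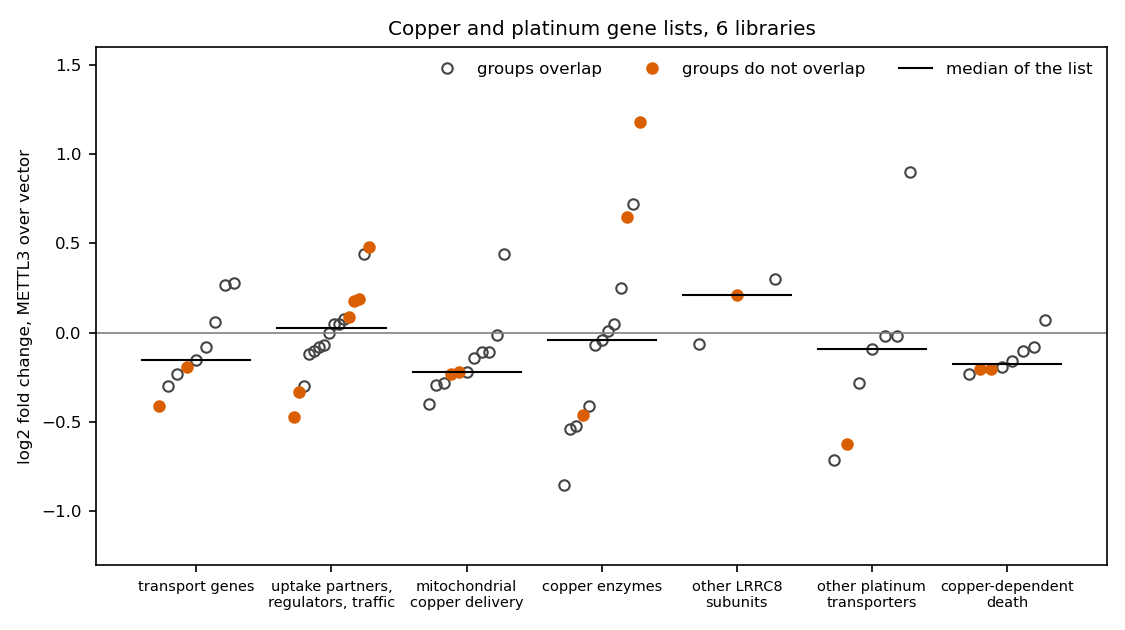
Log2 fold change of METTL3-overexpressing over vector control cells on 6 libraries (vertical axis) for the 9 transport genes and the tested genes of 6 related lists, 1 point per gene, filled where the CPM of the groups do not overlap. The list medians lie between -0.221 for mitochondrial copper delivery and 0.211 for the other LRRC8 subunits, and CP at 1.18 is the highest point.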

How the data were processed

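Per the labels, reads were processed with fastp, HISAT2 and featureCounts of Subread on hg38 (GRCh38), and the authors deposited raw counts per gene, without normalization, as 1 column per library. The versions, the annotation release and the handling of strand and of reads with several matches are not given in the sources used here, and the labels (a stranded kit) and the paper (another kit and single-end reads) differ on the library type. Between 67.6% and 70.5% of counts from 1 to 20 were even, so counts may hold both mates of a pair.

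Row identifiers were matched without version to GENCODE release 44 (60463 rows named). Genes kept by filterByExpr (edgeR 4.0.16 in R 4.3.3) were scaled by TMM and compared with glmQLFit (robust) and glmQLFTest on 6 libraries, with Benjamini-Hochberg adjustment over 22038 genes and a threshold of 0.05. The standard error was taken from the fold change and the F statistic, and 95% intervals use the test's degrees of freedom. DESeq2 1.42.0 was an alternative. The code was tested on simulated counts. The main fits on 6 libraries, and those on replicates 2 and 3, were not paired. After group means were subtracted, libraries 1, 2 and 3 of the groups correlated across genes at 0.33, 0.12 and 0.17 with their namesakes. These lay above the minimum of 0.1, so differences within each replicate number are described and a replicate block was fitted as an alternative. Unlike numbers reached 0.21 and 0.13, so this evidence for pairing, from the values alone, is weak. Named genes are the 9 transport genes, METTL3, the 2 largest changes of each list at a mean of at least 1 CPM, and for SLC31A1 and LRRC8A the 3 closest patterns. The genes and lists were chosen with earlier results of these data known. The 6 other lists were written by hand, and the set of replicates 2 and 3 was chosen in the same knowledge.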

Additional observations from a re-analysis of the deposited data

How the results depend on the processing

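All genes called with an adjusted p-value under 0.05 numbered 0 on 6 libraries with edgeR and 280 with DESeq2, 560 without a filter on low counts, 8 with the replicate number as a block and the trends with GC content and transcript length removed, 3362 in replicates 2 and 3, and 4721 there with those trends removed. Leaving out 1 library gave 0 to 367. Of the 9 transport genes, 3 were called in replicates 2 and 3 (0 higher, 3 lower) and 5 with the trends also removed (1 higher, 4 lower), where COX17 (-0.21, adjusted p = 0.0345 from edgeR) and LRRC8A (0.24, adjusted p = 0.000854 from edgeR) joined ATP7B (-0.54), ATOX1 (-0.15) and CCS (-0.18). The calls over all genes went from 1469 higher and 1893 lower to 2803 higher and 1918 lower with that removal. Of the related genes, 1 of 58 was called with DESeq2, and 5 of 60 without a filter (CP, MOXD1, LOXL2, LOXL4 and SLC22A3). In replicates 2 and 3, 16 of 58 were called, against 15.2% of all tested genes. With the trends removed there, 19 of 58 were called, against 21.5%. Leaving out 1 library gave 0 to 2, and the 2 were MOXD1 and CLU without vector control replicate 1. METTL3 passed with DESeq2 (1.18), without a filter (1.18), with the block and trends (1.22), and in replicates 2 and 3 (1.28, and 1.3 with the trends removed). Leaving out 1 library gave 1.13 to 1.23, and it passed without vector control replicate 1 (adjusted p = 0.00708 from edgeR). The replicate block alone gave METTL3 1.16 (adjusted p = 0.0941 from edgeR) and changed no call.

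ATP7B turned to 0.05 without vector control replicate 2 and lay between -0.36 and 0.05 over the libraries left out. SLC31A2 turned to 0.04 in replicates 2 and 3 and 0.05 with the trends removed, and LRRC8D to 0.01 and 0.04. SLC31A1, ATP7A, ATOX1, CCS, COX17 and LRRC8A kept their direction under the 16 alternatives, but not their size. Leaving out 1 library gave 0.03 to 0.12 for SLC31A1, 0.01 to 0.48 for ATP7A, -0.45 to -0.28 for ATOX1, -0.21 to -0.14 for CCS, -0.41 to -0.16 for COX17 and 0.09 to 0.41 for LRRC8A. It gave -0.36 to -0.08 for SLC31A2. DESeq2 size factors, a minimum of 10 counts in every library and counts divided by 2 changed no call. The cause of these differences was not tested.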

Other observations

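Processed copies of these genes drew few reads. COX17P1 held 11 to 29 counts per library, against 3073 to 4184 for COX17. SLC31A1P1 held 0 to 6 counts, against 6625 to 8954 for SLC31A1, and ATP7BP1 was at 0 counts in each library. How the counting treated reads that match a gene and its copy is not given in the sources used here.

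On the reference annotation, 20% of the exonic bases of COX17 are shared with POPDC2 on the same strand, which held 12 to 25 counts. Of the exonic bases of ATP7A, 2.45% lie opposite PGAM4, at 2.54 to 3.45 CPM, and 0.345% are shared with PGK1, at 480 to 730 CPM. For ATOX1, 2.48% of exonic bases lie opposite G3BP1, at 456 to 559 CPM. For LRRC8D, 6.78% of exonic bases are shared on the same strand with a protein-coding gene, ENSG00000271949. No exon of another annotated gene overlapped those of SLC31A1, ATP7B, CCS or LRRC8A.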
